A study of Rattus norvegicus with 8 samples.

Results

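The genes described here encode the pore-forming and accessory subunits of potassium channels (symbols that begin with Kcn), of voltage-gated and epithelial sodium channels (Scn) and of the cation channels opened by hyperpolarisation and cyclic nucleotides (Hcn), and were measured in hippocampal tissue from male Wistar rats. Members were chosen by symbol alone, with no use of their values. Kcnj13 was left out. The array held 116 such probes for 101 genes, among 41012 probes of which 15184 could be named, for 12206 genes. One member, Scnm1, is a splicing factor that carries a sodium channel symbol.

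Potassium channels set the resting potential, end action potentials and limit repetitive firing. Voltage-gated sodium channels carry the upstroke of the action potential, and their beta subunits alter gating and anchor the pore at the axon initial segment. HCN channels pass an inward current at rest that shapes how dendrites of pyramidal neurons add up their inputs. Two-pore potassium channels carry leak current, and inward rectifiers of the Kir3 group are opened by G protein-coupled receptors. In the hippocampus these families are spread over pyramidal neurons, granule neurons, interneurons, glia and vessels.

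Rats entered the study at 6 weeks of age and were killed at 8 weeks. One group of 4 received the standard CE-2 feed (control), and the other group of 4 received that feed with 0.1% coral calcium hydride powder (CCH). Each rat gave 1 array, hybridised with Cy3-labelled hippocampal RNA. The titles and treatment labels, from which the groups were taken, named no transgene and no other treatment. A free-text field of the samples speaks instead of lesioned parkinsonian animals given L-DOPA or saline, in a pattern that follows neither feed; it was set aside. The question was whether CCH in the feed changed hippocampal RNA levels. Each p-value below measures the spread between these 8 rats.

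Some facts on the arrays come before any result on the channel genes. All 4 control arrays were on one slide and all 4 CCH arrays on the other, each with its own scan, so feed, slide and scan cannot be told apart. Choroid plexus markers were low in CCH replicates 2 and 4, where the score, the mean difference of 12 detected genes from their own means, was -3.20 and -3.28, against -0.61 to 1.87 in the controls and 1.17 and 1.40 in the other CCH arrays. CCH replicate 1 stood apart most: leaving it out raised the probes that passed the test across the whole array from 55 to 708. On it, 16 of 17 genes of a list for the pineal gland and photoreceptors, chosen after its values were seen, were at their highest (score over 12 tested genes 4.71, then 1.92 in control replicate 3 and -1.33 to -0.71 in the other 6). The oligodendrocyte score did not overlap between feeds, at -0.25 to -0.01 in controls and 0.00 to 0.31 in CCH. Of its 17 tested probes 9 were higher at an unadjusted p under 0.05, where 8.79% of all tested probes were. In that list 0 passed the test, and the smallest adjusted p was 0.0529. The part of these cell types in the channel values was not tested. Hippocampal markers were present on all 8 arrays: 10 of 10 pyramidal neuron genes and 5 of 6 granule neuron genes on the array were detected, with Tdo2 the gene that was not. The 75th percentile of the processed signal, to which each array was scaled, was 611 ± 61.0 in controls and 732 ± 110 in CCH (SD, n = 4 each, two-sided exact permutation p = 0.0857, where 0.0286 is the smallest possible). Values below are log2 signals relative to that percentile, and a probe's level is compared between arrays and not with another probe's level.

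Channel genes were broadly detected and differed little between feeds. Of the 116 probes 98, for 86 genes, were well above background on at least 4 of 8 arrays and were tested, and 94 of them were above background on all 8. With limma and Benjamini-Hochberg adjustment over all 31617 tested probes, 0 of 98 passed an adjusted p of 0.05, beside 55 probes of the whole array (0.174%). The smallest adjusted p among the members was 0.0562. At an unadjusted p under 0.05, 9 member probes were higher in CCH, where 8.79% of all tested probes were, and 9 were lower, where 6.59% were. With the normexp background correction the split was 6 higher and 19 lower, in a setting where 5.83% of all tested probes were higher and 15.1% lower. Both directions together came to 18.4% of the members and 15.4% of all tested probes. The 4 CCH arrays lay above all 4 control arrays for 5 member probes (background 6.59%) and below them for 9 (background 4.7%). By sign, 44 member probes (44.9%) were higher and 54 lower, while 55.1% of all tested probes were higher. The median difference, CCH minus control, was -0.01 over the member probes and 0.03 over all tested probes. With the brightest probe of each gene, it was -0.01 over the 86 member genes and 0.02 over all 9740 named and tested genes. The median size of the difference was 0.19 on the log2 scale for members and 0.15 for all probes, while the median SD within a group was 0.19 and 0.22 for members (control and CCH) and 0.16 and 0.21 for all probes.

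**Figure D1:**
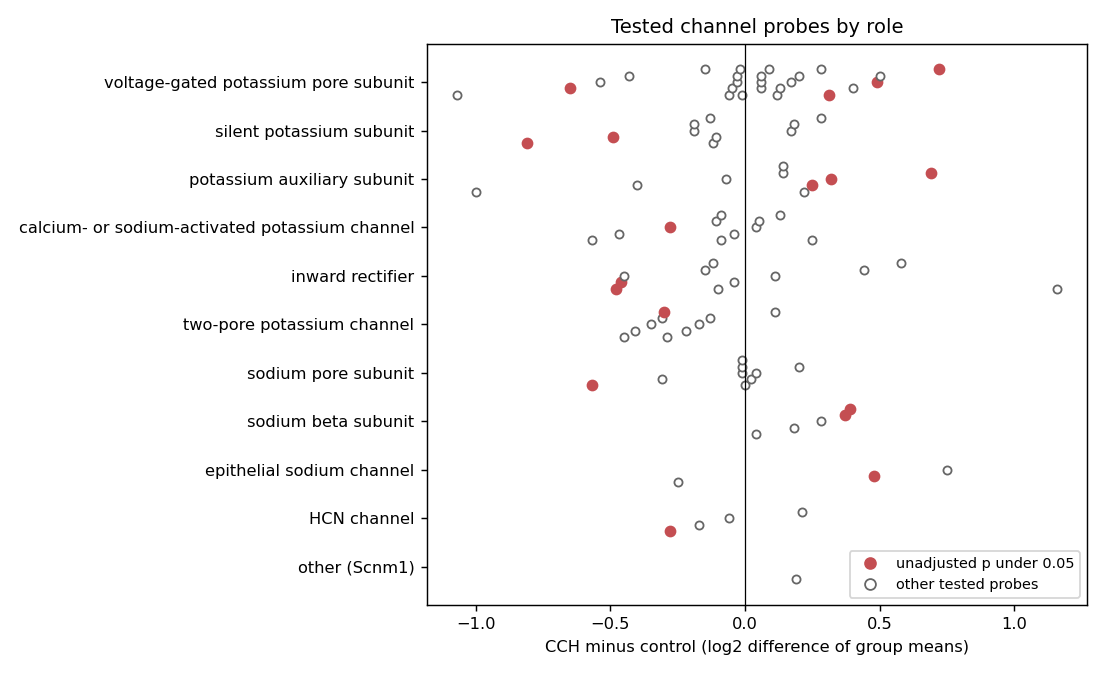
Log2 difference of group means, CCH minus control (horizontal axis), for each of the 98 tested channel probes, in rows by role. Filled points have an unadjusted p under 0.05 and open points do not; none passed the adjusted threshold. Of 10 two-pore channel probes 9 lie left of 0, and all 5 sodium beta subunit probes lie right of it.

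Among the voltage-gated potassium pore subunits, 14 of 25 tested probes had a higher mean in CCH and 11 a lower one, at a median difference of 0.06. At an unadjusted p under 0.05, 3 were higher and 1 was lower (8.79% and 6.59% of all tested probes were). The lower one read Kcna1, which encodes Kv1.1, a low-threshold channel of axons. On that probe (A_42_P475214) the controls measured -0.21, 0.01, -0.31 and -0.14 and the CCH rats -0.66, -0.67, -0.79 and -1.14. The groups did not overlap, and the difference was -0.65 ± 0.13 (SE; 1.57-fold lower, adjusted p = 0.0746). A second and brighter Kcna1 probe gave 3.80, 4.05, 3.80 and 4.31 in controls and 3.81, 4.19, 4.18 and 4.12 in CCH, with overlapping groups and a difference of 0.09 ± 0.15. The direction for Kcna1 therefore depended on the probe. Without CCH replicate 1 the first probe gave -0.70 with an adjusted p of 0.0499, and without both that array and control replicate 3 it gave -0.75 with an adjusted p of 0.102.

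Kcnc1 and Kcnc2 encode Kv3 channels, which open and close fast and let neurons fire at high rates. The Kcnc2 controls measured -2.78, -2.70, -2.00 and -2.80 and the CCH arrays -3.22, -3.09, -2.85 and -2.86. The groups did not overlap, control replicate 3 was the highest array, and the difference was -0.43 ± 0.19 (unadjusted p = 0.0518, adjusted p = 0.33). Without both control replicate 3 and CCH replicate 1 it was -0.17. The Kcnc1 probe had a difference of 0.13 ± 0.12.

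Kcnq3, a subunit of the M-current channel that muscarinic receptors close, showed the largest difference upward at an unadjusted p under 0.05, 0.72 ± 0.29 (1.65-fold, adjusted p = 0.29). Its controls measured 0.68, 1.15, 1.10 and 1.16 and its CCH arrays 1.35, 1.07, 2.24 and 2.32. Replicates 3 and 4 carried the difference, and the other CCH arrays lay within or just above the control range. Kcnd2 encodes Kv4.2, the A-type channel of pyramidal dendrites. The Kcnd2 controls measured 2.30, 2.51, 2.34 and 2.58 and the CCH arrays 1.07, 2.25, 2.16 and 2.07. All CCH arrays were below all controls, and replicate 1 was far below the rest: the difference of -0.54 ± 0.25 became -0.27 without it.

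The silent potassium subunits form no channel alone but alter other voltage-gated subunits when they join them. Of 10 tested probes 3 were higher and 7 lower, and 2 were lower at an unadjusted p under 0.05 (6.59% of all tested probes were). Kcng1 had, with Kcnip1, the smallest adjusted p of all members. Its controls measured -0.97, -0.59, -0.94 and -0.63 and its CCH arrays -1.74, -1.37, -1.55 and -1.71. The highest CCH array lay well below the lowest control, and the difference was -0.81 ± 0.13 (1.76-fold lower, adjusted p = 0.0562). Its estimate stayed between -0.89 and -0.73 under every alternative run. It passed the threshold under 5 of them, with array weights (adjusted p = 0.0228), normexp (0.0356), a moderated variance with trend (0.0365), detection on all 8 arrays (0.044) and CCH replicate 1 left out (0.0449). In these settings 1293, 246, 220, 209 and 708 probes of the whole array passed, in place of 55. With 1 array left out the adjusted p of Kcng1 reached up to 0.154. Without both CCH replicate 1 and control replicate 3 it was 0.0918. Kcns1 measured -1.88, -1.55, -1.70 and -1.35 in controls and -2.09, -1.74, -1.97 and -2.65 in CCH. The groups overlapped, CCH replicate 4 was the lowest array, and the difference was -0.49 ± 0.20 (adjusted p = 0.299). Under the alternatives the Kcns1 estimate ran from -0.61 to -0.31. The 3 probes of Kcng2 gave differences of -0.11, -0.13 and -0.19.

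**Figure D2:**
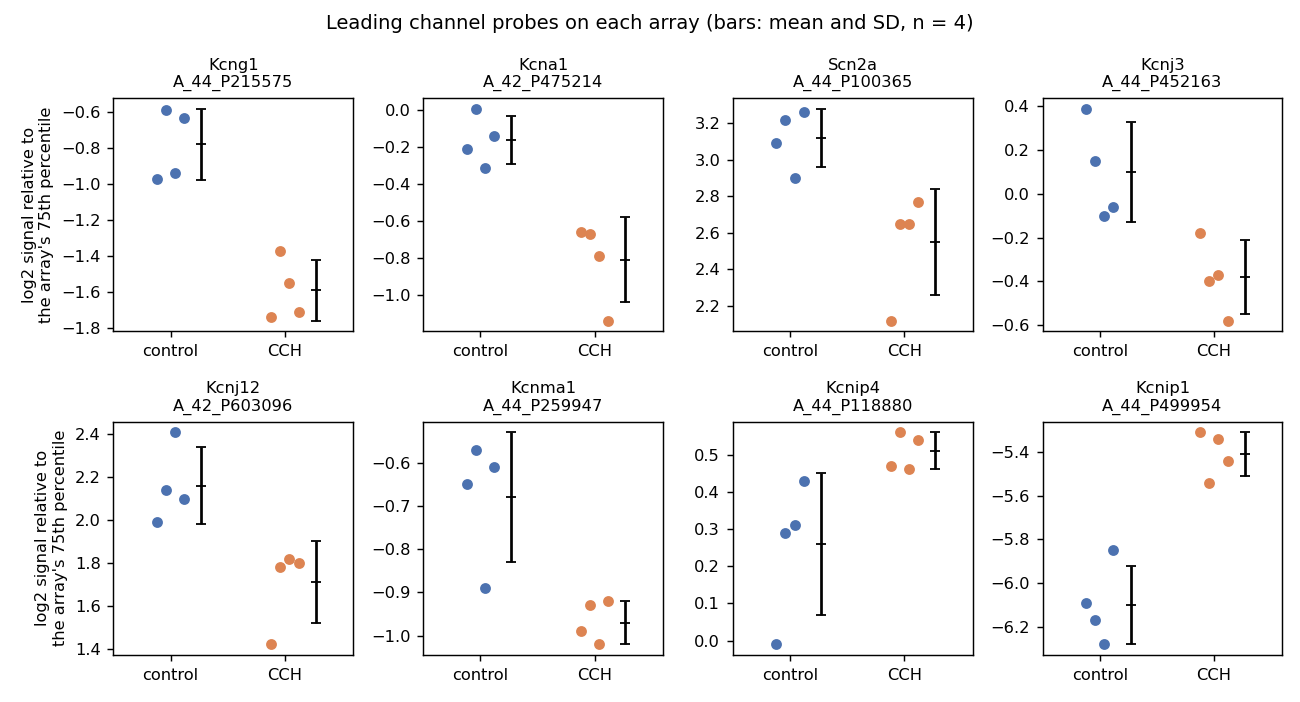
Log2 signal relative to the array's 75th percentile (vertical axis, a separate scale in each panel) for 8 channel probes in the 4 control and 4 CCH arrays; points are arrays and bars the mean and SD. All 8 are from the member probes whose groups do not overlap, 5 above and 9 below of 98 (6.59% and 4.7% of all tested probes). Probes with overlapping groups are not shown. CCH lies below control for Kcng1, Kcna1, Scn2a, Kcnj3, Kcnj12 and Kcnma1 and above it for Kcnip4 and Kcnip1.

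Auxiliary subunits of potassium channels comprise the KChIP calcium sensors of Kv4 (Kcnip genes), the Kv beta subunits (Kcnab genes) and the Kcne peptides. Of 9 tested probes 6 had a higher mean in CCH and 3 a lower one. At an unadjusted p under 0.05, 3 were higher, all of them Kcnip genes (8.79% of all tested probes were higher). Kcnip1 measured -6.09, -6.17, -6.28 and -5.85 in controls and -5.31, -5.54, -5.34 and -5.44 in CCH. The groups were clear of each other, and the difference was 0.69 ± 0.11 (1.61-fold, adjusted p = 0.0562). These signals lay close to the dimmest values called above background, which were between -7.06 and -6.73, and with normexp the difference was -0.09. Without CCH replicate 1 it was 0.66 (adjusted p = 0.0449), and without both that array and control replicate 3 it was 0.60 (adjusted p = 0.101).

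Kcnip2 measured -0.33, 0.02, -0.50 and -0.20 in controls and 0.08, 0.20, -0.11 and 0.09 in CCH, a difference of 0.32 ± 0.13 (adjusted p = 0.288) with overlapping groups. For Kcnip4 the values were -0.01, 0.29, 0.31 and 0.43 against 0.47, 0.56, 0.46 and 0.54, which did not overlap, and the difference was 0.25 ± 0.11 (adjusted p = 0.318). Kcnip3 had the opposite sign, -0.40 ± 0.20 (adjusted p = 0.384). Both Kcnab1 probes, which read the Kv beta subunit that speeds inactivation of Kv1 channels, were higher by sign (0.22 ± 0.11 and 0.14 ± 0.10).

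Voltage-gated sodium channel pores showed median difference -0.01 over 9 tested probes, 3 higher and 6 lower. Scn1a, Scn2a and Scn8a encode Nav1.1 of interneurons and Nav1.2 and Nav1.6 of pyramidal neuron axons. For Scn2a the probe A_44_P100365 measured 3.09, 3.22, 2.90 and 3.26 in controls and 2.12, 2.65, 2.65 and 2.77 in CCH. All CCH arrays lay below all control arrays (-0.57 ± 0.16, 1.48-fold lower, adjusted p = 0.149). The other Scn2a probe measured 3.32, 3.54, 3.38 and 3.54 in controls and 3.28, 3.51, 3.39 and 3.56 in CCH. These values overlapped almost fully, with a difference of -0.01 ± 0.10. Scn8a differed by -0.01 ± 0.15, and Scn1a by 0.20 ± 0.09 (adjusted p = 0.355).

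The sodium beta subunits had a higher mean in CCH on 5 of 5 probes for 4 genes (55.1% of all tested probes did), with a median difference of 0.28. At an unadjusted p under 0.05, 2 were higher (8.79% of all tested probes were). Scn3b measured 6.55, 6.90, 6.54 and 6.66 in controls and 6.82, 6.99, 7.09 and 7.32 in CCH, and only CCH replicate 1 fell inside the control range (0.39 ± 0.13, adjusted p = 0.22). Scn4b, the subunit linked to resurgent current, measured 1.41, 1.66, 1.57 and 1.33 in controls and 2.14, 1.58, 1.84 and 1.91 in CCH on its brighter probe (0.37 ± 0.14, adjusted p = 0.244). CCH replicate 2 lay inside the control range. A second and much dimmer Scn4b probe gave 0.18 ± 0.21, which was -0.08 with normexp. Scn2b differed by 0.04 ± 0.11. Scnm1, the splicing factor, differed by 0.19 ± 0.09 (adjusted p = 0.379).

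**Figure D3:**
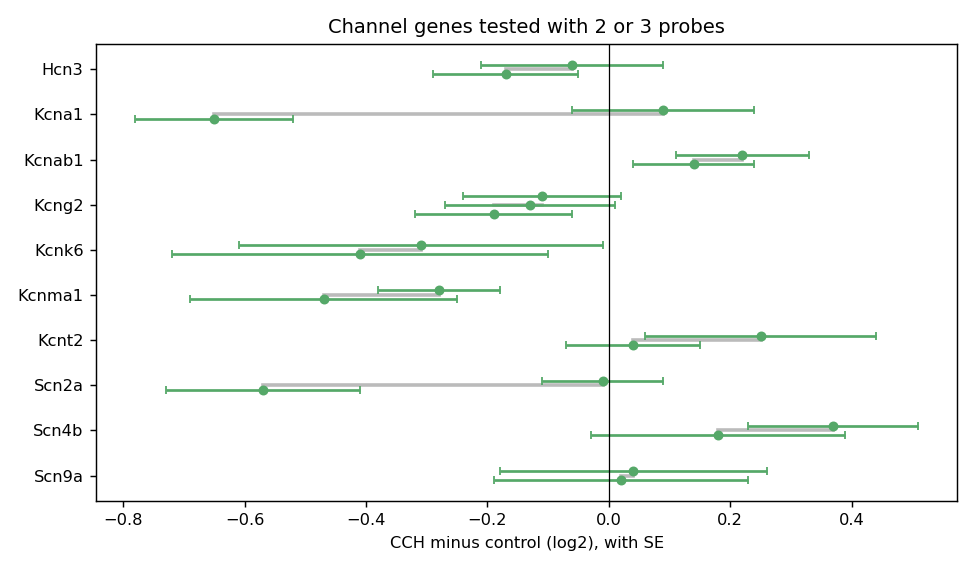
Log2 difference, CCH minus control (horizontal axis), with its standard error, for each probe of 10 channel genes tested with 2 or 3 probes; a grey bar joins the probes of a gene. The probes have the same sign for 9 genes and opposite signs for Kcna1, and the Scn2a probes lie at -0.57 and -0.01.

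The inward rectifiers were higher for 4 probes and lower for 7, with a median difference of -0.10. Kcnj3 encodes Kir3.1, a subunit of the neuronal channels opened by G proteins. The Kcnj3 probe measured 0.39, 0.15, -0.10 and -0.06 in controls and -0.18, -0.40, -0.37 and -0.58 in CCH, without overlap (-0.48 ± 0.14, 1.39-fold lower, adjusted p = 0.162). Its partner Kcnj6 (Kir3.2) had the opposite sign: 0.57, 0.96, 0.71 and 0.98 in controls against 0.66, 1.47, 1.48 and 1.36 in CCH (0.44 ± 0.20, adjusted p = 0.339). CCH replicate 1 was the one CCH array inside the control range, and without it the Kcnj6 difference was 0.63 with an adjusted p of 0.0493, while without both that array and control replicate 3 it was 0.60 with an adjusted p of 0.115. The third Kir3 member, Kcnj9, differed by -0.10 ± 0.12.

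Kcnj12, which encodes the constitutively open Kir2.2, measured 1.99, 2.14, 2.41 and 2.10 in controls and 1.42, 1.78, 1.82 and 1.80 in CCH. The groups did not overlap (-0.46 ± 0.13, 1.37-fold lower, adjusted p = 0.162), and CCH replicate 1 was the lowest: without both that array and control replicate 3 the difference was -0.28. Kcnj10, the Kir4.1 channel of astrocytes, differed by 0.11 ± 0.10. The astrocyte marker score ran from -0.08 to 0.04 in controls and from -0.05 to 0.14 in CCH. In RNA from whole hippocampus, fewer cells of a type and less RNA per cell cannot be told apart.

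Of the 10 two-pore channel probes 9 had a lower mean in CCH, where 44.9% of all tested probes did, with a median difference of -0.30; 2 of the 9 read the same gene, Kcnk6. At an unadjusted p under 0.05, 1 was lower (6.59% of all tested probes were). That was Kcnk1 (TWIK-1), with -0.24, -0.45, -0.64 and -0.25 in controls and -0.53, -0.60, -0.79 and -0.85 in CCH (-0.30 ± 0.12, adjusted p = 0.301). The ranges overlapped between -0.64 and -0.53. The stretch-activated channels Kcnk2 (TREK-1) and Kcnk10 (TREK-2) differed by -0.29 ± 0.18 and -0.45 ± 0.23. Kcnk4 (TRAAK), of the same group, was the single probe with a positive difference, 0.11 ± 0.15. Kcnk13, which in the brain marks microglia, differed by -0.13 ± 0.15. The microglia score was 0.05 to 0.21 in controls and -0.18 to -0.04 in CCH, lower in every CCH array. Of 16 tested probes of that list 1 passed the test, that of the Fc receptor gene Fcgr2b (adjusted p = 0.0399). Fcgr2b had by far the largest difference, -1.23, against -0.44 to 0.28 for the other tested probes, and it weighs on the score. With the brightest probe of each gene, 11 genes were lower and 2 higher, Itgam (0.28) and Cx3cr1 (0.16). The part of microglia in the Kcnk13 value was not tested.

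Channels opened by calcium or sodium were higher for 4 probes and lower for 7. Kcnma1 encodes the BK channel, which opens on voltage and calcium and repolarises the spike. Its probe of smaller p measured -0.65, -0.57, -0.89 and -0.61 in controls and -0.99, -0.93, -1.02 and -0.92 in CCH. The CCH arrays lay just below the lowest control (-0.28 ± 0.10, adjusted p = 0.212). The other Kcnma1 probe gave -0.47 ± 0.22, with CCH replicate 1 far below the rest at -1.99. The SK channel genes Kcnn1, Kcnn2 and Kcnn3, which carry the current after a burst of spikes, differed by -0.11, 0.13 and -0.09.

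HCN channels gave 4 tested probes, 1 higher and 3 lower. Hcn2, an HCN subunit with strong sensitivity to cyclic AMP, measured -2.40, -2.18, -2.34 and -2.17 in controls and -1.52, -2.25, -2.46 and -2.02 in CCH. The groups overlapped, with CCH replicate 1 the highest array. Its difference was 0.21 ± 0.19, and 0.01 without both CCH replicate 1 and control replicate 3. The Hcn3 probes differed by -0.17 and -0.06. The HCN trafficking partner Pex5l (TRIP8b) had -0.15 ± 0.09, with all CCH arrays at or below 3.52 and all controls between 3.53 and 3.56. Over the whole list of proteins that bind, move or anchor these channels, 37 probes for 28 genes were tested and 0 passed. In that list 1 probe was higher and 2 were lower at an unadjusted p under 0.05. Together they were 8.11% of its tested probes, beside 15.4% of all tested probes. The lower ones were the Kv4 partner Dpp10 (-0.50 ± 0.11, adjusted p = 0.0867) and the node adhesion protein Nrcam (-0.24 ± 0.08, adjusted p = 0.202). A second Nrcam probe gave -0.05 ± 0.20.

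Some members gave dim or partial signals. For 18 probes the detection rule was not met, which left 15 genes with no tested probe: Hcn4, Kcna7, Kcne1, Kcne3, Kcne4, Kcnj1, Kcnj15, Kcnj2, Kcnk15, Kcnk18, Kcnmb1, Kcnmb3, Kcnv2, Scn10a and Scn4a. On 10 of these probes no array was well above background. A probe of Hcn4 (A_44_P327807) and the Scn10a probe were each above background on 3 of 4 control arrays and on 0 of 4 CCH arrays. Set against the dimmest signal called above background, or the probe's own where that was higher, the signal of that Hcn4 probe was at least 1.41-fold lower in CCH and that of Scn10a at least 1.33-fold lower. The other Hcn4 probe was above background on 0 of 8 arrays. With no detection filter their adjusted p was 0.268 and 0.143. Scn4a was above background on 2 of 4 CCH arrays and on no control array, at least 2.07-fold higher in CCH with an unfiltered adjusted p of 0.591. These were CCH replicates 1 and 2, at -3.38 and -4.16, while the others were at -8.98 and -6.92, and without CCH replicate 1 the bound was 1.17-fold. Among epithelial sodium channel subunits, Scnn1g was also dim, with -6.59, -6.96, -6.33 and -6.38 in controls and -5.88, -6.03, -6.08 and -6.33 in CCH. The lowest CCH array equalled the highest control at this rounding (0.48 ± 0.16, adjusted p = 0.207), and with normexp the difference was -0.16.

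For 4 members a single array, CCH replicate 1, lay far above all the others. Kcna5 (Kv1.5), Kcnh6 (an Erg-type channel), Kcnj14 (Kir2.4) and Scnn1b (the beta subunit of the epithelial sodium channel) each stood more than 2 log2 units above the other CCH arrays on CCH replicate 1. These were 4.08% of the 98 tested members, beside 156 probes or 0.494% of all tested probes. RefSeq promoter windows of build GRCr8 were available for 65 of the 101 member genes, in 71 windows of 300 bases that run from 250 bases before the start to 50 after it. The windows of these 4 genes are shown because the genes moved together on the same array, 5′ to 3′ on the strand of the gene, with capitals for matches to the motifs named after them.
Kcna5, chr4:161043760-161044059, minus strand: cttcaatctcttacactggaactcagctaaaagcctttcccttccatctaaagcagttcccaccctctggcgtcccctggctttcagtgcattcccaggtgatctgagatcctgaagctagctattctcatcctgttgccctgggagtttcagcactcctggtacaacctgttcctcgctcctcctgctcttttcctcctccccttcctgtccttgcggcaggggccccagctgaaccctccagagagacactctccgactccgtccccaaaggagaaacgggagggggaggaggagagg
Kcnh6, chr10:91449401-91449700, plus strand: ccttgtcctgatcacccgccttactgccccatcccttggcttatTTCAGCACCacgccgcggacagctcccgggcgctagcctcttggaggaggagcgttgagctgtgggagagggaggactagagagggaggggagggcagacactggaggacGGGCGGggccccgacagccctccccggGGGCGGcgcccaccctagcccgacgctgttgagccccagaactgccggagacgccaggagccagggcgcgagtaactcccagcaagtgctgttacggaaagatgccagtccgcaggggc
Kcnj14, chr1:105437209-105437508, minus strand: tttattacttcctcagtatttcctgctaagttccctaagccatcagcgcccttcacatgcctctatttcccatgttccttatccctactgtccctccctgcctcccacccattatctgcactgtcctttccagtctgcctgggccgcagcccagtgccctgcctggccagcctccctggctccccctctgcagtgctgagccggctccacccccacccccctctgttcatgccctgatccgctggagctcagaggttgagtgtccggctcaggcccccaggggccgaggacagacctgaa
Scnn1b, chr1:185861126-185861425, plus strand: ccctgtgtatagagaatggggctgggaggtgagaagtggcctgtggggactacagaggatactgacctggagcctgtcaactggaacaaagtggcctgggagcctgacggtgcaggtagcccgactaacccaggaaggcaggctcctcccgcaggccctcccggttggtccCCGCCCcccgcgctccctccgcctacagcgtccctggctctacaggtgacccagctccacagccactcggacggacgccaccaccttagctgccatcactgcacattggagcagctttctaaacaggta

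Motifs were searched on both strands as exact letters, and none of the matches shown overlap. The GC box GGGCGG occurred 2 times for Kcnh6 and 1 time for Scnn1b, and Kcnh6 also held TTCAGCACC, the left part of the binding site of the neuronal repressor REST. None of the 4 windows held the TATA box TATAAA, the cyclic AMP response element TGACGTCA or TAATCC, the core bound by the photoreceptor and pineal factors Crx and Otx2. Over all 71 member windows GGGCGG was found in 49.3%, against 33.1% of the 33469 windows in the table, and TATAAA in 1.41% against 14.2%. TAATCC was in 4.23% of member windows and 7.17% of all, TTCAGCACC in 1.41% and 0.356%, and TGACGTCA in 0 of 71 and 1.83%. The median share of G and C was 61.7% in member windows and 51.7% in all.

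Scnn1b had the widest span of these 4 genes. Its controls measured -5.61, -5.68, -3.35 and -5.37 and its CCH arrays -0.94, -5.29, -5.32 and -5.47. Control replicate 3 was thus the second highest array. Kcnh6 followed the same order at the top, with -3.29, -2.83, -1.76 and -2.93 in controls and 0.34, -3.08, -3.45 and -3.49 in CCH. Kcnj14 measured -0.49, -0.12, 0.19 and -0.19 in controls and 2.15, -0.21, -0.09 and -0.15 in CCH, again with control replicate 3 in the second place. Kcna5 measured -3.91, -3.93, -3.71 and -3.55 in controls and -1.56, -3.83, -3.80 and -3.94 in CCH, where control replicate 4 was second. The group differences were 0.75 ± 1.05, 0.28 ± 0.83, 0.58 ± 0.51 and 0.50 ± 0.50 in this order of genes, with adjusted p-values of 0.787, 0.907, 0.643 and 0.692. Without CCH replicate 1 Scnn1b gave -0.36, Kcnh6 -0.64 and Kcna5 -0.08, so their sign turned, and Kcnj14 gave 0.00.

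Most genes of the pineal gland and photoreceptor list were also highest on that array: 17 of its 20 genes were on the array and 12 were tested. Slc18a1, which encodes a vesicular monoamine transporter, went the other way and was at its lowest on CCH replicate 1, at -2.82 against -1.69 to -0.27 elsewhere. Aanat, the enzyme that sets the rhythm of melatonin synthesis, measured 0.75 on CCH replicate 1 and -3.78 to -3.24 on the other arrays. The photoreceptor rim protein Prph2 measured 4.56 on CCH replicate 1, 1.45 on control replicate 3 and -5.79 to -3.83 elsewhere. Tph1, which begins serotonin synthesis in the pineal gland, measured 4.75 on CCH replicate 1, 0.95 on control replicate 3 and -8.97 to -4.06 elsewhere. The photoreceptor kinase Grk1 measured 2.16, then -1.21 on control replicate 3, and -3.76 to -3.32 elsewhere. Crx was at -0.59 on CCH replicate 1, at -4.46 on control replicate 3, and at -8.96 to -7.07 elsewhere. The part of these cells in the 4 channel genes was not tested. The thalamus and habenula score was also highest on CCH replicate 1, at 0.89 against -0.44 to 0.24 elsewhere; of its 5 genes Chrna3 stood out, at -0.53 against -5.85 to -4.27, while Tac1 was at its lowest there, at -0.41.

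**Figure D4:**
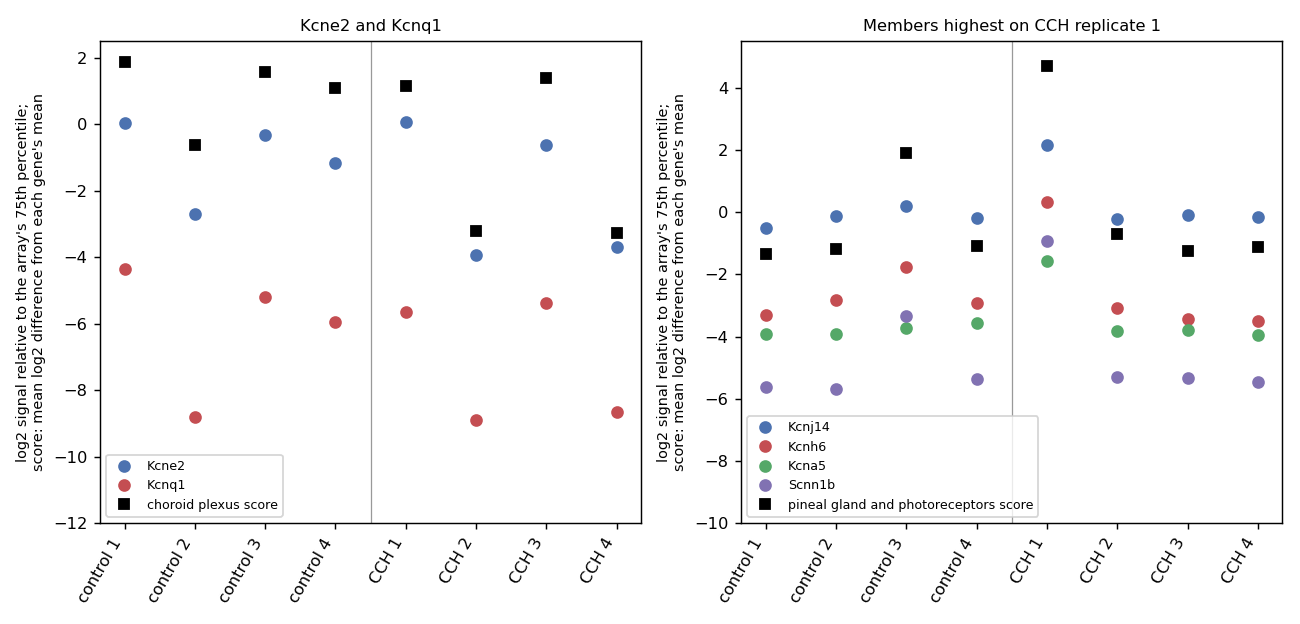
Log2 signal relative to the array's 75th percentile, by array, for Kcne2 and Kcnq1 with the choroid plexus score (left) and for Kcnj14, Kcnh6, Kcna5 and Scnn1b with the score of pineal gland and photoreceptor genes (right); a score is the mean difference of each listed gene from its own mean, and the arrays are not a series in time or dose. Kcne2 and Kcnq1 are low where the choroid score is low, in CCH replicates 2 and 4 and control replicate 2, and the 4 genes at the right are highest on CCH replicate 1, where the score is 4.71.

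A pair of members were low on the same arrays as choroid plexus markers, and Kcnk5 was low there by a smaller margin. Kcne2 and its partner Kcnq1 form a channel of the choroid plexus epithelium, and Kcnq1 was named after its values were seen. Kcne2 measured 0.03, -2.71, -0.33 and -1.16 in controls and 0.08, -3.93, -0.62 and -3.70 in CCH. Kcnq1 measured -4.36, -8.80, -5.21 and -5.96 in controls and -5.66, -8.90, -5.37 and -8.67 in CCH. Its probe was well above background on 3 of 4 control arrays and 2 of 4 CCH arrays. On control replicate 2 and CCH replicates 2 and 4 it lay under the dimmest values called above background (between -7.06 and -6.73). For both genes CCH replicates 2 and 4 and control replicate 2 were the lowest arrays. These were also the 3 arrays with the lowest choroid score, and Ttr, the choroid transthyretin gene, ran 7.66, 4.95, 7.79 and 7.20 in controls and 6.47, 1.09, 7.34 and 0.56 in CCH. All 12 tested choroid genes were lower in CCH by sign, and 0 passed the test. The two-pore channel gene Kcnk5 had the same 3 lowest arrays, at -2.57 in control replicate 2 and -2.58 and -2.50 in CCH replicates 2 and 4. Its other arrays lay at -2.30 to -1.49, and its difference was -0.35 ± 0.26 (adjusted p = 0.579). The part of choroid plexus in the Kcnk5 value was not tested. The difference for Kcne2 was -1.0 ± 1.02 (adjusted p = 0.697) and for Kcnq1 -1.07 ± 1.14 (adjusted p = 0.714). With normexp the differences were -0.68 and -0.28, and without CCH replicates 2 and 4 they were 0.77 and 0.57.

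Kcnj8, the Kir6.1 subunit that marks pericytes, had the largest difference upward of all members, 1.16 ± 1.06 (adjusted p = 0.659). Its values were 0.35, 0.54, 0.69 and -4.44 in controls and 0.80, 0.57, 0.23 and 0.18 in CCH. Control replicate 4 alone was low, and without it the difference was -0.08. The endothelium and pericyte score was also lowest on that array, at -0.41, with -0.23 to 0.44 on the others. The part of pericytes in that value was not tested.

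On the lead counts, the doubted arrays mattered as follows. Without CCH replicate 1, 5 member probes passed the adjusted threshold, among them those of Kcnip1 and Kcnj6 (higher) and of Kcng1 and Kcna1 (lower). In that setting 708 of all 31593 tested probes passed. Leaving out CCH replicate 1 together with control replicate 3, an alternative chosen after seeing the data, 0 members and 0 of all 31547 probes passed, with 11 members higher and 11 lower at an unadjusted p under 0.05, beside 11.1% and 7.07% of all probes. Without CCH replicates 2 and 4, 0 members and 0 of all 31604 probes passed, with 6 members higher and 9 lower, beside 5.01% and 4.89%. Leaving out any of the other 7 arrays singly gave 0 members, in settings where 0 or 1 of all probes passed.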

How the data were processed

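Hippocampal RNA of 8 rats was measured on Agilent rat 1-colour arrays, 1 array per rat. Per the file headers and the submitters' processing notes, the authors extracted spots with Agilent Feature Extraction 9.5. Their deposited files give a processed intensity per spot, linear and with background already subtracted, without normalisation between arrays. The deposited value table holds the same intensity rounded (largest relative difference 0.00498) and was not analysed separately. Between 33091 and 34643 of 43379 spots that were not controls exceeded background clearly, none saturated, and the 55 to 122 that bore an outlier mark were left out. The number of arrays limits the precision.

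Probes were named through RefSeq accessions matched to a gene table of the assembly GRCr8. Processed signals were put on the log2 scale, the 75th percentile of each array was subtracted, and spots of a probe were averaged. A probe was tested if well above background on at least 4 of 8 arrays with at least 3 values per group. Groups were compared by the moderated two-sided test of limma 3.58.1 (R 4.3.3) over all 31617 such probes, and the script was tested on simulated data. Probes of a gene were kept apart, except where a median over genes took the brightest.

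The members, the lists of partners and cell type markers, and the tests were chosen with earlier results of these data known; the pineal list was written after its values were seen. Named genes were, per direction, the 12 member genes of smallest unadjusted p with their other tested probes, 12 channel genes of known hippocampal roles, and members that mark other cell types. Kcna5, Kcnh6, Kcnj14, Scnn1b, Kcnq1, Kcnc1, Kcnh2, Kcnj9, Kcnk2, Kcnk4, Kcnk5, Kcnk6, Kcnk10, Kcng2, Kcnn1, Kcnn2, Kcnn3, Hcn3, Scn2b and the members with partial signals were named after their values were seen. Alternatives covered background correction, scaling, detection, outlier marks, the variance model, array weights, a replicate block and arrays left out. Normexp used the median spot signal (offset 50), since the files hold no mean signal. A block for slide or scan was not run, because it equals the feed. Some members and a partner gene are not reported here by name.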

Additional observations from a re-analysis of the deposited data

Results flagged for a closer look

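In 20 of 196 groups of 4 arrays (10.2%; 8.04% over all tested probes), 1 array of a member probe lay far from the other 3 by Dixon's test, which flags about 1 in 20 groups by chance. Of these, 10 were on CCH replicate 1. High there were Kcna5 at -1.56, Kcnh6 at 0.34, Kcnj14 at 2.15 and Scnn1b at -0.94. The others on that array were low: Kcnd2 at 1.07, Kcnh2 at -3.11 (other CCH arrays -1.76 to -1.69), Kcnh7 at -2.54, Kcnj12 at 1.42, Kcnj6 at 0.66 and the Kcnma1 probe at -1.99. Over all tested probes, CCH replicate 1 was the high array for 3.18% and the low array for 5.67%, against 0.281% to 0.361% for CCH replicates 2, 3 and 4 in either direction.

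Both probes of Kcnk6, a two-pore channel, were high on CCH replicate 4, at -3.95 where the other CCH arrays were -5.25 to -5.04, and at -0.94 where they were -1.67 to -1.62. The 2 probes thus gave the same order for that rat. On control replicate 1, Kcns2 was high at -3.30 by a small margin (others -3.44 to -3.43), and Kcnc1 at 0.27, Kcnq3 at 0.68 and Kcnt1 at -2.31 were low. On control replicate 3, Kcnc2 at -2.00 and Scnn1b at -3.35 were high and Kcnj5 at -1.99 was low. On control replicate 4, Kcnj8 was low at -4.44.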

How the results depend on the processing

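With 4 arrays a group and each feed on its own slide, small differences rest on the spread of few rats, and no alternative separates feed from slide. Of 878 values of 44 of the named probes under alternatives, 834 kept their direction and side of the threshold. Of the others, 12 passed the threshold anew and 32 changed sign, over 13 probes. As 0 members had passed it as reported, none could lose it. Not among the 44 were the probes of Kcnc1, Kcng2, Kcnk4, Kcnk5, Kcnn1, Kcnn2, Kcnn3, Hcn3 and Scn2b. Kcnh7, Kcns2, Kcnt1 and Kcnj5, named among the flagged results, were also left out of that count. The count of member probes that passed was 0 as reported, 1 with normexp, 2 with detection on all 8 arrays, 1 with trend and robust variance, 5 with array weights, and 0 to 5 with 1 array left out. Over all probes the same settings gave 246, 209, 220, 1293 and 0 to 708 in place of 55, and normexp moved the median of all probes from 0.03 to -0.07. At an unadjusted p under 0.05, lower members went from 9 to 19 with normexp (15.1% of all probes). With 1 array left out they came to 9 to 14, the highest without CCH replicate 4 (5.62% of all probes). Higher members went from 9 to 14 with array weights (14.4% of all probes) and to 4 to 13 with 1 array left out. There were 4 without control replicate 1 (5.95% of all probes) or CCH replicate 4 (6.54%), and 5 without control replicate 3 (6.33%). Without CCH replicate 1 there were 13 (14.1%). The replicate block gave 0 members and 0 probes in all. At an unadjusted p under 0.05 it gave 7 higher and 12 lower members, beside 8.25% and 7.46% of all probes. Equal numbers may mark equal slide positions. Deviations of arrays with equal numbers correlated by 0.15, 0.08, 0.00 and 0.25, and the numbers were not taken as pairs.

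Sign changes with normexp were Kcnip1 -0.09, Scnn1g -0.16, Kcnj10 -0.06, the brighter Scn2a probe 0.02 and the dimmer Scn4b probe -0.08. With array weights they were that Scn2a probe 0.04, Scn8a 0.09, Scnn1b -0.33, Kcnh6 -0.58, Kcnh2 0.25 and Kcna5 -0.02. Without CCH replicates 2 and 4 Kcne2 gave 0.77 and Kcnq1 0.57. Without control replicate 3 and CCH replicate 1 Scn2a gave 0.02, Scn8a 0.09, Kcnh6 -0.32, Kcnh2 0.31 and Kcna5 -0.06. With 1 array left out the ranges of probes whose sign changed were -0.08 to 0.71 for Kcna5, -0.16 to 0.32 for Kcnh2, -0.64 to 0.64 for Kcnh6, -0.08 to 1.63 for Kcnj8, -0.05 to 0.04 for that Scn2a probe, -0.02 to 0.29 for that Scn4b probe, -0.09 to 0.11 for Scn8a and -0.36 to 1.30 for Scnn1b. The cause of these changes was not tested.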
